A study of Mus musculus with 6 samples.

Results

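The Wnt, Fgf and Bmp genes of thymic medullary epithelial cells were compared between mice with and without Aire, the transcriptional regulator through which these cells express proteins of other organs for display to developing T cells. Members were all genes whose symbol is Wnt, Fgf or Bmp followed by a digit and that had a probe set annotated with that symbol alone, with the Fgfr and Bmpr receptors left out. This gave 54 of the 19938 genes on the array: 19 Wnt, 23 Fgf and 12 Bmp genes. Of the 54, 51 encode members of the 3 factor families. The others share only the name: Bmp1 encodes a protease that trims procollagen, Bmp2k encodes an intracellular kinase and Fgf2os is a transcript antisense to Fgf2. The cells were isolated by flow cytometry from dissociated thymus by lack of CD45, intermediate Ly51 and high MHC class II. The mice were (B6xNOD)F1 animals aged 4 to 6 weeks. The groups were 3 mice labelled Aire WT and 3 labelled Aire KO (Aire-/-), each hybridised to its own array, and both groups share background, age and sort. Which exons of Aire the knockout removes is not stated in the labels.

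Wnt proteins are lipid-modified signals that bind Frizzled receptors and act on neighbouring cells, largely by stabilising beta-catenin. Fibroblast growth factors (Fgf) bind receptor tyrosine kinases with heparan sulphate as cofactor; a branch of them instead circulates as hormones, and another is never secreted. Bone morphogenetic proteins (Bmp) bind serine/threonine kinase receptors and switch on Smad transcription factors and Id genes. In the thymus, Wnt4, Fgf7, Fgf10 and Bmp4 are known as factors, largely from mesenchyme or epithelium, that shape the growth and upkeep of the epithelium.

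All values are log2 intensities, a difference is the Aire KO mean minus the Aire WT mean, SE comes from the limma fit, and intervals are 95% intervals of that fit. A gene was tested if at least 3 of the 6 arrays read over 5.97 (the 40th percentile of all values), and it is called where the Benjamini-Hochberg adjusted p over all 13925 tested genes is under 0.05. Intensities of different probe sets depend on the probes as well as on the RNA, so levels are not ranked between genes. Array medians ran from 92.9 to 98.2 on the linear scale. Aire itself read 12.00, 11.92 and 11.99 in the WT mice and 12.38, 12.41 and 12.42 in the mice labelled KO, so its probe set, which spans the transcript, does not check the genotype labels. All 9 medullary markers were tested, and 3 of them fell: Krt5 fell by 0.84 on the log2 scale, Krt14 fell by 0.44 and Epcam fell by 0.37. The other 6 were not called, 2 of them higher at an unadjusted limma p under 0.05. The median difference over the 9 was -0.0022. H2-Aa, at 13.43 and 13.63 (WT and KO means), did not pass. Of 7 cortical markers, Psmb11 and Cxcl12 were too dim to test and Ly75 and Dll4 were bright and not called. Enpep, which encodes the sort antigen Ly51, fell by 0.996 on the log2 scale, Ctsl fell by 0.72 and Prss16 rose by 0.36. Epcam lost its call without KO replicate 1, KO replicate 3 or WT replicate 3 (adjusted p 0.0575 to 0.0917), Krt14 without KO replicate 1 (0.0565) or KO replicate 2 (0.0516), and Prss16 without KO replicate 2 (0.0626). Xist lay between 10.66 and 11.39 on the 6 arrays, and the Y-linked genes Kdm5d, Eif2s3y and Uty lay under the filter on all of them.

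The 250 bases upstream of the annotated start of 4 members whose levels differed are shown because these genes moved in opposite directions within a family: Fgf23 fell while Fgf21 rose, and Wnt2b fell while Wnt3 rose. The sequences are from RefSeq (mouse assembly GRCm38.p6), written 5′ to 3′ along the gene, and capitals mark CG dinucleotides.
Fgf23, chr6:127072652-127072901, plus strand: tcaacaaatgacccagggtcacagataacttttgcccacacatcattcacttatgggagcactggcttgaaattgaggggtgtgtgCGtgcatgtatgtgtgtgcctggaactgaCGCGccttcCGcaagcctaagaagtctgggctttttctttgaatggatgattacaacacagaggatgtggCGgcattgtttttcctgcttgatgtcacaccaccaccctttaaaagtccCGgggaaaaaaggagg
Fgf21, chr7:45615491-45615740, minus strand: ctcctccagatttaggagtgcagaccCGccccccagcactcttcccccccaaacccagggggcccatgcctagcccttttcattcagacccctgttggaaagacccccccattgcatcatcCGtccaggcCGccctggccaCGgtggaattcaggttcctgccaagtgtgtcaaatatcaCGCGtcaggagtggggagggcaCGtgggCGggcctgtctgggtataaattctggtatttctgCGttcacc
Wnt2b, chr3:104961710-104961959, minus strand: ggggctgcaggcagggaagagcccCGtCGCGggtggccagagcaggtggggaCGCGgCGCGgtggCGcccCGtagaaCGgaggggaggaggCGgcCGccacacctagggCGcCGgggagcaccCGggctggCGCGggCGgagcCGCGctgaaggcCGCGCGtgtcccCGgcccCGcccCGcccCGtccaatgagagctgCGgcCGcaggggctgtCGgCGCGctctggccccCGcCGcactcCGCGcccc
Wnt3, chr11:103773925-103774174, plus strand: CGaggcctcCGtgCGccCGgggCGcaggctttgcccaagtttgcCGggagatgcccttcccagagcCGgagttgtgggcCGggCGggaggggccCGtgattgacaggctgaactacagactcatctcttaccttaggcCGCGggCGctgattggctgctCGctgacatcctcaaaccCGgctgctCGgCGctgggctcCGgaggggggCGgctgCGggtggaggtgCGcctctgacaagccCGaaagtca
Both Wnt windows are dense in CG, with 36 in Wnt2b and 22 in Wnt3, against a median of 6 over the 32851 windows of this length in the table. The hormone genes Fgf23, with 6, and Fgf21, with 9, are near that median. At least as few CG dinucleotides stood in 97.8% of all windows as in that of Wnt2b, 86.7% for Wnt3, 53.7% for Fgf23 and 62.2% for Fgf21. The motif TATAAA, searched on both strands, occurs in the Fgf21 window, in none of the other three shown, and in 12.4% of all windows. The 4 windows were chosen after the calls were known, as a Wnt and an Fgf gene for each direction. They cannot show whether CG density goes with direction. Windows of the table also matched Wnt9a, with 48 CG dinucleotides, Fgf14, with 7, and Fgf13, which has several annotated starts. Bmp2 and Fgf15 were not matched.

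Of the 39 members bright enough to test, 4 fell and 5 rose in the mice labelled KO by limma, which is 23.1% of them. Over all 13925 tested genes 26.1% were called, 14.1% as lower and 12.0% as higher, so the share of members called lies near that background and says nothing particular about them. The members that fell were Bmp2, Fgf23, Fgf15 and Wnt2b, and those that rose were Fgf14, Fgf13, Fgf21, Wnt3 and Wnt9a. The differences were small: the members ranged from -0.68 for Bmp2 to 0.57 for Fgf14, and 0 of 54 differed by 2-fold, a size that 2.64% of tested genes passed with a call. The median difference was 0.09 over all 54 members and 0.04 over all 19938 genes. None of the 39 tested members reached the filter through 1 genotype alone. The other 15, dim on most or all arrays, lay between 4.34 and 6.00. In the fit with no filter, which tests all 54, 5 members fell and 6 rose, the additions being Wnt8b and Fgf10. In that fit 19.9% of all genes were called, 11.0% as lower and 8.93% as higher. The count of members that rose depended on single arrays: it was 2 without WT replicate 3 or KO replicate 1, and 3 on leaving out KO replicate 2, KO replicate 3 or WT replicate 2, while the count that fell was 4 in each of these fits. Without KO replicate 1, the count of all genes that rose was 1052 in place of 1676.

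**Figure D1:**
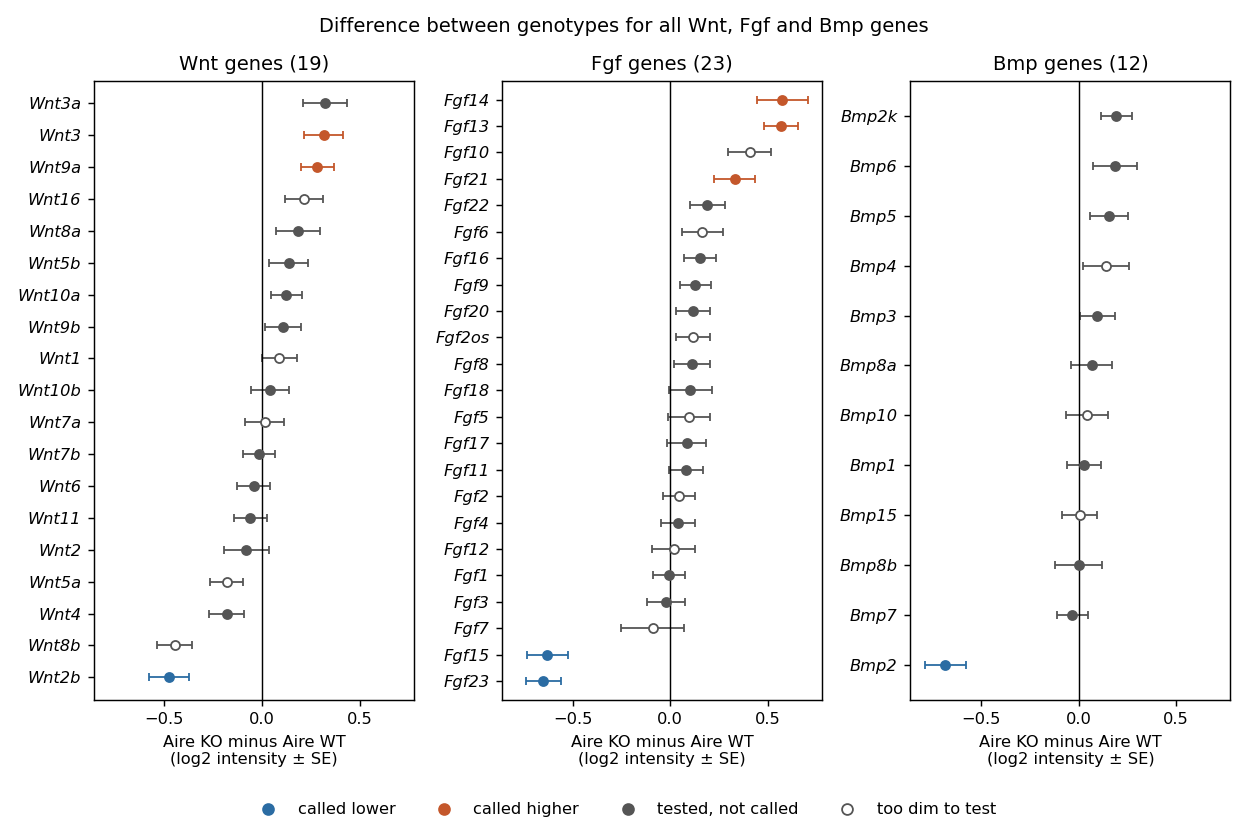
Difference between genotypes (Aire KO minus Aire WT, log2 intensity) for all 54 members by family, with bars of 1 SE from the limma fit (the unfiltered fit for members too dim to test, open circles). Most members lie close to 0, and the called ones range from -0.68 (Bmp2) to 0.57 (Fgf14).

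The 3 hormone-like Fgf genes, whose proteins circulate and need a Klotho co-receptor, were all called, in different directions. Of the 16 tested Fgf genes of all kinds 5 were called (31.25%), near the 26.1% of all tested genes. A group of 3 genes is too small to set against that share. Fgf23, the bone hormone that makes the kidney excrete phosphate, read 7.37, 7.35 and 7.23 in the WT mice and 6.60, 6.61 and 6.79 in the mice labelled KO. The groups did not overlap. Fgf23 fell 1.57-fold (difference -0.65, SE 0.09, limma adjusted p = 0.00028). Fgf15, the intestinal hormone that restrains bile acid synthesis in the liver, read 7.09, 7.09 and 7.39 against 6.43, 6.69 and 6.56, again without overlap. It fell 1.55-fold (-0.63, SE 0.11, limma adjusted p = 0.0013). Fgf21, a metabolic hormone best known from liver and also made by thymic epithelium, had the brightest probe set of the members and moved the other way. It read 12.04, 11.98 and 11.76 in the WT mice and 12.43, 12.15 and 12.19 in the mice labelled KO, close together but not overlapping. Its rise of 1.26-fold (0.33, SE 0.10) passed only narrowly (limma adjusted p = 0.039) and was lost after another quantile normalization (adjusted p = 0.059). It was also lost on leaving out KO replicate 1 (0.16), WT replicate 3 (0.11), KO replicate 3 (0.068) or WT replicate 2 (0.0555). The calls of Fgf23 and Fgf15 held in every fit in which they were tested. The co-receptor genes Kl and Klb were too dim to test.

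Fgf13 and Fgf14, which encode intracellular Fgf homologous factors that bind voltage-gated sodium channels, both rose. Fgf13 read 7.36, 7.22 and 7.35 in the WT mice and 7.83, 8.01 and 7.79 in the mice labelled KO. The groups lay well apart, and the rise was 1.48-fold (0.57, SE 0.09, limma adjusted p = 0.00080). Fgf14 read 6.78, 7.07 and 7.34 against 7.72, 7.71 and 7.48. Its WT mice were spread, with the highest close to the lowest KO value, and it rose 1.49-fold (0.57, SE 0.13, limma adjusted p = 0.0079). Both calls held in all 16 alternative fits. The other members of this branch did not pass: Fgf11 differed by 0.08 (interval -0.11 to 0.27), and Fgf12 was too dim to test and differed by 0.02. Fgf13 lies on the X chromosome, as do Fgf16, which differed by 0.15 and was not called, and Bmp15, which was too dim to test. Xist, by which an X chromosome is silenced, differed by -0.52 (limma adjusted p = 0.0020), and its part in the rise of Fgf13 was not tested.

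**Figure D2:**
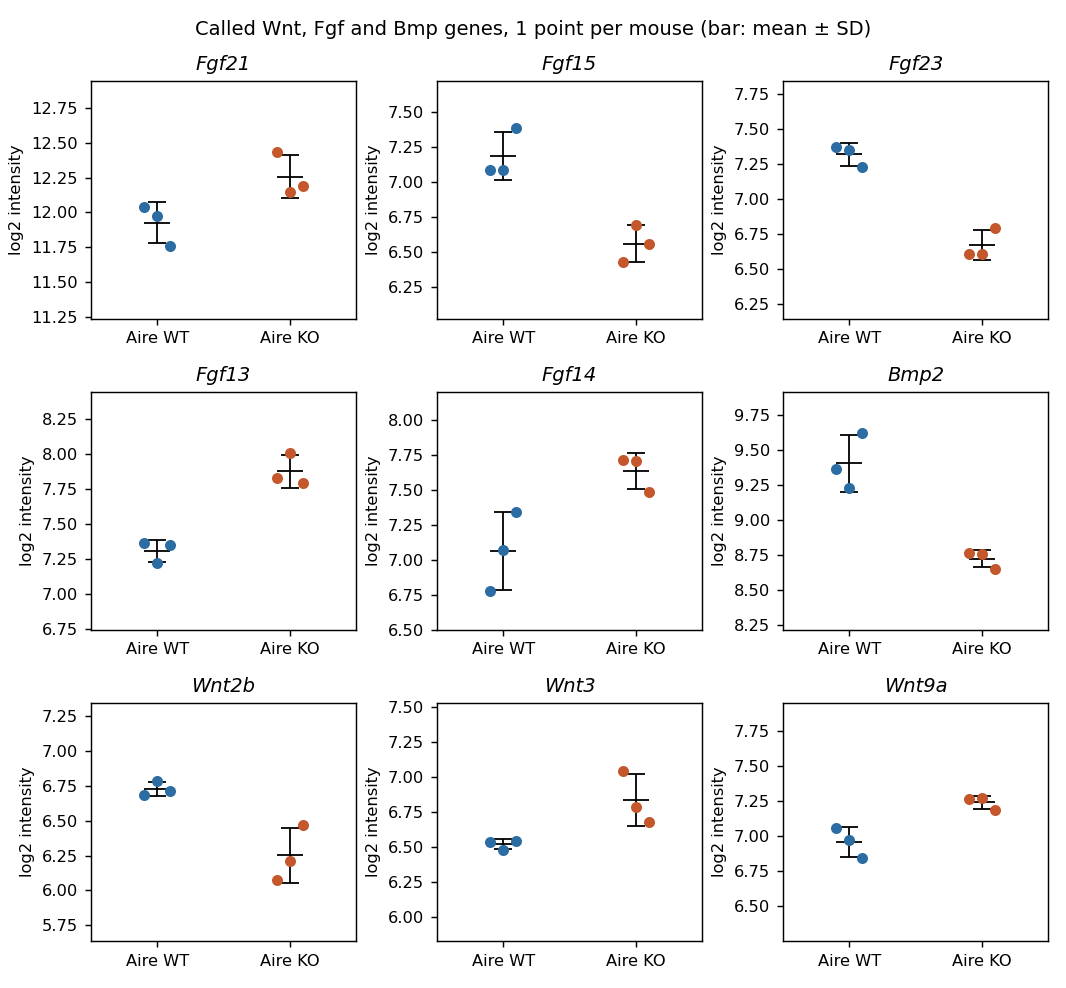
Log2 intensity of the 9 called members in each mouse, 3 per genotype, with the mean and SD; each panel spans the same range of 1.7 log2 units around its own centre. Fgf15, Fgf23, Bmp2 and Wnt2b are lower in all 3 KO-labelled mice, and Fgf21, Fgf13, Fgf14, Wnt3 and Wnt9a are higher, with narrow gaps for Fgf21, Fgf14, Wnt3 and Wnt9a.

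Among the 15 secreted Fgf genes that act on nearby cells, 10 were tested and 0 were called by limma, with 0 at an unadjusted p under 0.05. Over all tested genes 26.1% were called. Their differences ran from -0.02 for Fgf3 to 0.19 for Fgf22, and their intervals lay within -0.23 and 0.39. Fgf8, a patterning signal of embryonic epithelium and brain, lay between 7.51 and 7.81 on the 6 arrays, Fgf1 between 7.15 and 7.33 and Fgf9 between 7.04 and 7.24. Fgf7 and Fgf10, the ligands of epithelial Fgfr2 that thymic mesenchyme is known to make, were too dim to test. Fgf7 lay between 4.88 and 5.57. Fgf10 read 5.25, 4.92 and 5.24 in the WT mice and 5.60, 5.65 and 5.38 in the mice labelled KO. In the unfiltered fit Fgf10 was higher by 0.41 (SE 0.11, limma adjusted p = 0.024), with every array under the filter, where background compresses a difference.

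Bmp2 had the largest difference of the members. Bmp2, a ligand that drives bone formation and Smad signalling, read 9.36, 9.23 and 9.62 in the WT mice and 8.76, 8.76 and 8.65 in the mice labelled KO. All 3 KO-labelled values lay below the lowest WT value. It fell 1.60-fold (-0.68, SE 0.10, limma adjusted p = 0.00067), and the call held in all 16 alternative fits. Of the 9 other Bmp ligand genes, 6 were tested and 0 were called by limma, with 0 at an unadjusted p under 0.05. The share called over all tested genes was 26.1%. Bmp7 lay between 8.38 and 8.51 on the 6 arrays, Bmp3 between 8.52 and 8.81 and Bmp6 between 6.97 and 7.50, and the groups overlapped for each. The differences of the 6 ran from -0.03 for Bmp7 to 0.19 for Bmp6, and their intervals lay within -0.26 and 0.44. Bmp4, known as an early thymic signal, was too dim to test at 4.92 to 5.40. Bmp8a and Bmp8b are close copies of each other and their probe sets may share signal. Bmp1 and Bmp2k, which are not ligands, differed by 0.03 and 0.19 and were not called.

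Among the 19 Wnt genes, 14 were tested, 1 fell and 2 rose, where 14.1% of all tested genes fell and 12.0% rose. Wnt2b, a ligand that signals through beta-catenin, read 6.69, 6.78 and 6.71 in the WT mice and 6.07, 6.21 and 6.47 in the mice labelled KO. The WT mice were close together and the KO-labelled mice more spread, without overlap. It fell 1.39-fold (-0.48, SE 0.10, limma adjusted p = 0.0059), and the call held in all 15 fits in which it was tested. Wnt3, a ligand that supports stem cells in the intestine, read 6.54, 6.48 and 6.54 against 7.04, 6.78 and 6.68. The lowest KO-labelled value was just above the WT group. Its rise of 1.24-fold (0.32, SE 0.10, limma adjusted p = 0.038) was lost on leaving out KO replicate 1 (adjusted p = 0.16), KO replicate 2 (0.063), WT replicate 1 (0.072), WT replicate 2 (0.092) or WT replicate 3 (0.059). Wnt9a, known for its part in joint formation, read 7.06, 6.97 and 6.84 against 7.27, 7.27 and 7.19. Its rise of 1.22-fold (0.28, SE 0.09, limma adjusted p = 0.0315) was lost on leaving out KO replicate 1 (adjusted p = 0.098), KO replicate 2 (0.079), KO replicate 3 (0.061), WT replicate 2 (0.064) or WT replicate 3 (0.0685).

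The other 11 tested Wnt genes were not called, with differences from -0.18 for Wnt4 to 0.32 for Wnt3a. Wnt3a, next to Wnt9a in the genome, read 6.63, 6.62 and 6.21 in the WT mice and 6.73, 6.83 and 6.86 in the mice labelled KO (limma adjusted p = 0.057). Wnt4, which regulates Foxn1 in thymic epithelium, read 8.07, 8.12 and 7.95 against 7.84, 7.99 and 7.77, with overlapping groups (-0.18, interval -0.38 to 0.01). It is the only member with a second probe set, which differed by -0.05. Wnt10a lay between 8.30 and 8.51 on the 6 arrays, Wnt10b between 8.24 and 8.55, Wnt11 between 7.93 and 8.11 and Wnt7b between 6.82 and 6.96. Wnt5a, Wnt7a, Wnt16, Wnt1 and Wnt8b were too dim to test. Of these, Wnt8b, expressed in the developing forebrain, read 5.53, 5.53 and 5.74 against 5.16, 5.12 and 5.18, and was lower by 0.45 in the unfiltered fit (SE 0.09, limma adjusted p = 0.0039), with every array under the filter.

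Several members lie next to each other in the RefSeq gene order. Fgf15 has Fgf4 as its neighbour and Fgf3 next to that on chromosome 7. The difference was -0.63 for Fgf15, 0.04 for Fgf4 and -0.02 for Fgf3. On chromosome 6 Fgf23 stands beside Fgf6, at -0.65 and 0.16, and Fgf6 was too dim to test. On chromosome 11 Wnt3 stands beside Wnt9b, at 0.32 and 0.11, and Wnt9a beside Wnt3a, at 0.28 and 0.32. The neighbours Wnt6 and Wnt10a, at -0.04 and 0.12, were both uncalled, as was Wnt10b, at 0.04, whose neighbour Wnt1 was too dim to test.

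The genes that receive and modulate these signals were taken from lists written from general knowledge, and several genes stand in more than 1 list. Counting each gene once, and leaving out Lefty2 and Rspo4, which reached the filter in 1 genotype alone, 29 of 140 tested genes fell (20.7%) and 12 rose (8.6%), beside 14.1% and 12.0% of all tested genes. Each single list holds few genes, and its counts are read against those shares. The lists were chosen with earlier results of these data known, so their counts are not independent of these values. Of 17 tested Wnt receptor and co-receptor genes, 1 fell and 3 rose, and 13 did not pass (median over the 19 listed 0.10). Ror1, a receptor of Wnt5a, read 7.85, 7.92 and 7.89 in the WT mice and 8.47, 8.52 and 8.46 in the mice labelled KO. The 2 groups were tight and far apart, and Ror1 rose 1.51-fold (limma adjusted p = 0.000195). The Frizzled receptor genes moved in both directions, Fzd1 rising by 0.40 (limma adjusted p = 0.0061) and Fzd7 falling by 0.37 on the log2 scale (0.0083). Ror2 rose by 0.30, a call lost without any of 5 arrays in turn (all but WT replicate 2; adjusted p 0.067 to 0.11). Wls, which carries Wnt proteins to the cell surface, fell 1.35-fold from 8.76 ± 0.12 to 8.32 ± 0.04 (SD, n = 3, limma adjusted p = 0.0034). Among the 7 tested genes of Wnt secretion and potentiation it was the only fall, and Rnf43 and Znrf3 rose by 0.33 and 0.26. Rnf43 and Znrf3 encode ligases that remove Frizzled receptors from the surface. Rspo4, a secreted enhancer of Wnt signals, read 5.74, 5.83 and 5.55 against 6.04, 6.23 and 6.08. It was tested only because the KO-labelled arrays reached the filter, so its difference is given without a call. Rspo2, of the same list, was too dim to test and read 6.00, 6.01 and 5.90 against 5.40, 5.57 and 5.57. In the unfiltered fit Rspo2 was called as lower (difference -0.46, limma adjusted p = 0.0031). Znrf3 lost its call without any array but WT replicate 3 (adjusted p 0.052 to 0.12).

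Of the 10 tested secreted Wnt antagonists, 2 fell and 0 rose by limma (2 and 0 at an unadjusted p under 0.05), with a median of -0.03 over the 15 listed. Among all tested genes 14.1% fell and 12.0% rose. Dkk1, which blocks the co-receptor Lrp6, read 7.37, 7.19 and 6.92 in the WT mice and 6.26, 6.60 and 6.50 in the mice labelled KO. It fell 1.63-fold without overlap (limma adjusted p = 0.0016). Sostdc1, which restrains Wnt and Bmp signals alike, fell by 0.38 on the log2 scale (limma adjusted p = 0.00855). In the unfiltered fit 3 more were called as lower, all of them under the filter on at least 4 arrays. Sfrp4, which encodes a secreted Frizzled-related protein that binds Wnt ligands, read 5.89, 6.01 and 6.51 in the WT mice and 5.22, 4.99 and 5.09 in the mice labelled KO (difference -1.04, limma adjusted p = 0.000305). Its relatives Sfrp2 and Frzb differed by -0.38 and -0.43 (limma adjusted p = 0.01 and 0.0221). Of 16 tested Wnt signal transducers, 2 fell, Bcl9 and Csnk1a1, and each lost its call in fits without 1 array: 0 of the transducers fell without KO replicate 1, KO replicate 3 or WT replicate 3, and 1 without WT replicate 1, WT replicate 2 or KO replicate 2. Of 13 tested Wnt target genes, 3 fell and 2 rose (median over the 14 listed -0.14). Apcdd1 fell by 0.35 on the log2 scale (limma adjusted p = 0.0072) and Cd44 by 0.46 (0.013), while Rnf43 rose. Myc fell by 0.24 (limma adjusted p = 0.047), a call lost without any array but KO replicate 2 (adjusted p 0.052 to 0.17). The call of Myc was also lost with no filter (0.0597), after centring on array medians (0.0606) and with the replicate block (0.0935). Axin2, the target most often used to read the pathway, differed by 0.27 and was not called (limma adjusted p = 0.061). Cd44 lost its call without KO replicate 1 (adjusted p = 0.060). In that fit 1 target fell, and in every fit without 1 array except WT replicate 3, 1 target rose.

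**Figure D3:**
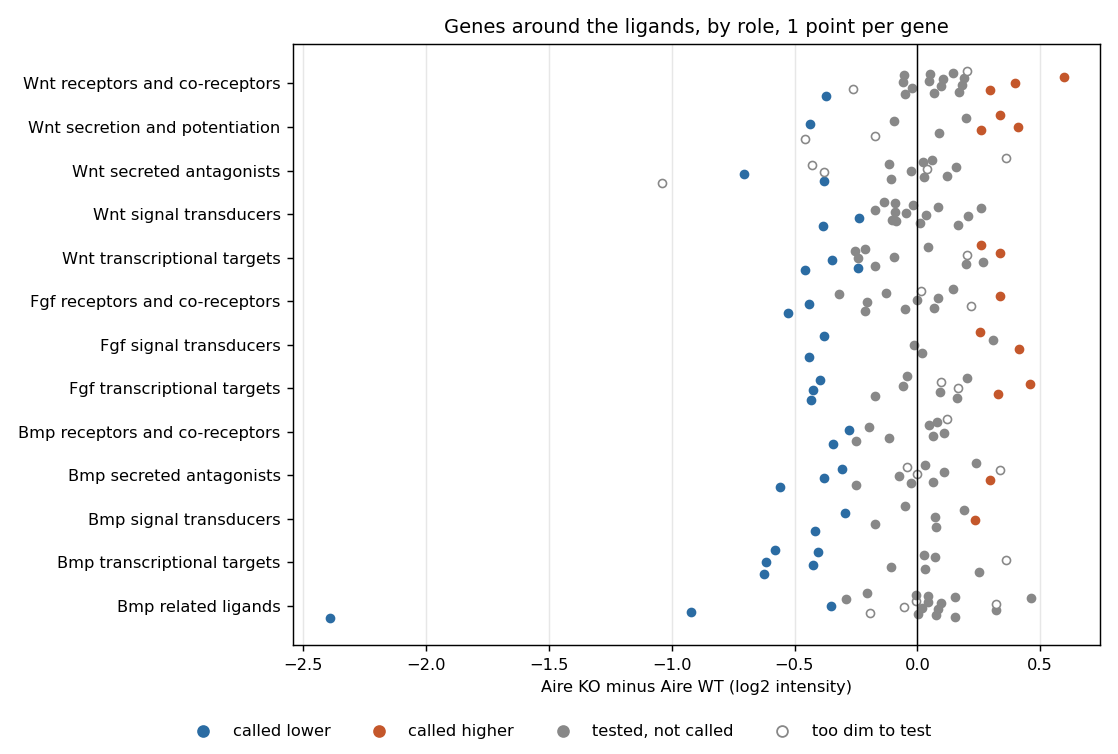
Difference between genotypes (Aire KO minus Aire WT, log2 intensity) for each gene of the lists of receptors, antagonists, transducers, targets and related ligands, 1 point per gene, with open circles for genes too dim to test. Calls in both directions stand in most lists, 5 of the Bmp targets lie below -0.40, and Lefty2, bright in the WT mice alone, lies farthest from 0.

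Of 12 tested Fgf receptor and co-receptor genes, 2 fell and 1 rose (median over the 14 listed -0.02). Among all tested genes 14.1% fell and 12.0% rose. Fgfr2, whose epithelial form binds Fgf7 and Fgf10, read 7.38, 7.31 and 7.52 in the WT mice and 6.71, 7.00 and 7.17 in the mice labelled KO. The groups did not overlap, and it fell 1.36-fold (limma adjusted p = 0.017), a call lost without WT replicate 3 (adjusted p = 0.055) or KO replicate 1 (0.068). The heparan sulphate carrier Sdc2 fell by 0.53 on the log2 scale (limma adjusted p = 0.00059), and Gpc1, another carrier, rose by 0.34, a call lost without KO replicate 1 (adjusted p = 0.061). Probe sets with 1 symbol were found for 7 of 13 listed transducers, of which 2 fell and 2 rose. Sos1 fell by 0.44 and Map2k1, the kinase Mek1, rose by 0.41. Gab1, which fell, lost its call without KO replicate 1 (adjusted p = 0.065) or KO replicate 2 (0.063), and Frs3, which rose, without any array but WT replicate 1 (adjusted p 0.099 to 0.12).

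Target genes of Fgf signalling split between the directions, with 3 of 11 tested falling and 2 rising (median over the 13 listed 0.09). Among all tested genes 14.1% fell and 12.0% rose. The feedback inhibitor genes Spry4 and Spry2 rose by 0.46 and 0.33 (limma adjusted p = 0.0092 and 0.015), while the inhibitor genes Dusp6 and Spred1 fell by 0.40 and 0.42 on the log2 scale (0.0099 and 0.012) and the adhesion gene Flrt3 by 0.43 (0.00955). Spry4 read 7.15, 7.20 and 7.10 in the WT mice and 7.80, 7.65 and 7.37 in the mice labelled KO. Dusp6, which inactivates the kinase Erk, read 7.81, 7.56 and 7.75 against 7.28, 7.23 and 7.42. Known feedback genes of 1 pathway were thus split between the directions. Spry2 lost its call on leaving out KO replicate 1 (adjusted p = 0.062), KO replicate 3 (0.061) or WT replicate 2 (0.051), and Spred1 without KO replicate 3 (0.056).

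Target genes of Bmp signalling fell in 5 of 10 tested and rose in 0 by limma (5 and 0 at an unadjusted p under 0.05), where 14.1% of all tested genes fell. The list was chosen with earlier results of these data known, so its count is not independent of these values. The 5 were Id3, Id2 and Id4, which encode inhibitors of helix-loop-helix transcription factors, Smad7, an inhibitor of the pathway, and Bambi, a decoy receptor. Id3 read 7.54, 7.90 and 7.52 in the WT mice and 7.15, 6.95 and 6.98 in the mice labelled KO. It fell 1.54-fold (limma adjusted p = 0.0019). Smad7 read 7.75, 7.86 and 7.97 against 7.30, 7.46 and 6.97, with the KO-labelled mice more spread, and fell 1.53-fold (0.0032). Id2 read 9.42, 9.19 and 9.64 against 8.90, 8.91 and 8.70 and fell 1.49-fold (0.0034). Bambi fell by 0.43 and Id4 by 0.40 on the log2 scale. The count that fell was 5 in all 16 alternative fits. Id1, the target most often used to read the pathway, differed by 0.03, Msx1 by 0.07 and Hey1 by 0.03, and these were not called. Smad6 differed by 0.25 and was called as higher only without WT replicate 1, and Msx2, too dim to test, was higher by 0.36 in the unfiltered fit (limma adjusted p = 0.017). The median over the 11 listed was -0.11.

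Id2, Id3 and Smad7 are also expressed by lymphocytes, and markers of leukocytes moved between the groups. Of 6 thymocyte markers, 2 fell and 4 did not pass: Cd3g fell by 1.40 on the log2 scale and Ptprc fell by 0.62. Cd3g lost its call with trended, robust variances (adjusted p = 0.0997). The summed linear intensity of the 6 ran from 838 to 1545 in the WT mice, the highest in WT replicate 3, and from 549 to 818 in the mice labelled KO. Of 5 tested myeloid markers, Csf1r fell, Cd68 rose and Itgam, above the filter in the WT mice alone, was lower, and the 7 listed summed to 3328 to 3712 against 3284 to 3359. Both tested B cell markers, Cd79b and Pax5, rose. The other 2 found, Cd79a and Ms4a1, were too dim to test, and the median difference over the 4 was 0.06. Ptprc lost its call without WT replicate 3 (adjusted p = 0.064) or KO replicate 3 (0.0925), and Cd68, Cd79b and Pax5 each lost theirs without 4 or 5 of the arrays in turn (adjusted p 0.053 to 0.15, 0.064 to 0.12 and 0.065 to 0.13). None of these markers is at 0 in RMA values, and the part of other cells in the Bmp target and Bmp2 differences was not tested. Without WT replicate 3, the 5 Bmp targets and Bmp2 kept their calls, and in the same fit Cd3g still fell by 0.996 (adjusted p = 0.0177). Among the epithelial markers, Krt5, Krt14, Epcam, Enpep and Ctsl fell as well, while Prss16 rose. The 9 medullary markers summed to 25937 to 27191 in the WT mice and 25013 to 27088 in the mice labelled KO. These ranges overlapped, and the median difference over the 9 was -0.0022. The 7 cortical ones summed to 2634 to 2976 and 2065 to 2364, without overlap. The part of the epithelial cells was not tested either. In sorted bulk cells, fewer cells of a type and less RNA per cell cannot be told apart.

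**Figure D4:**
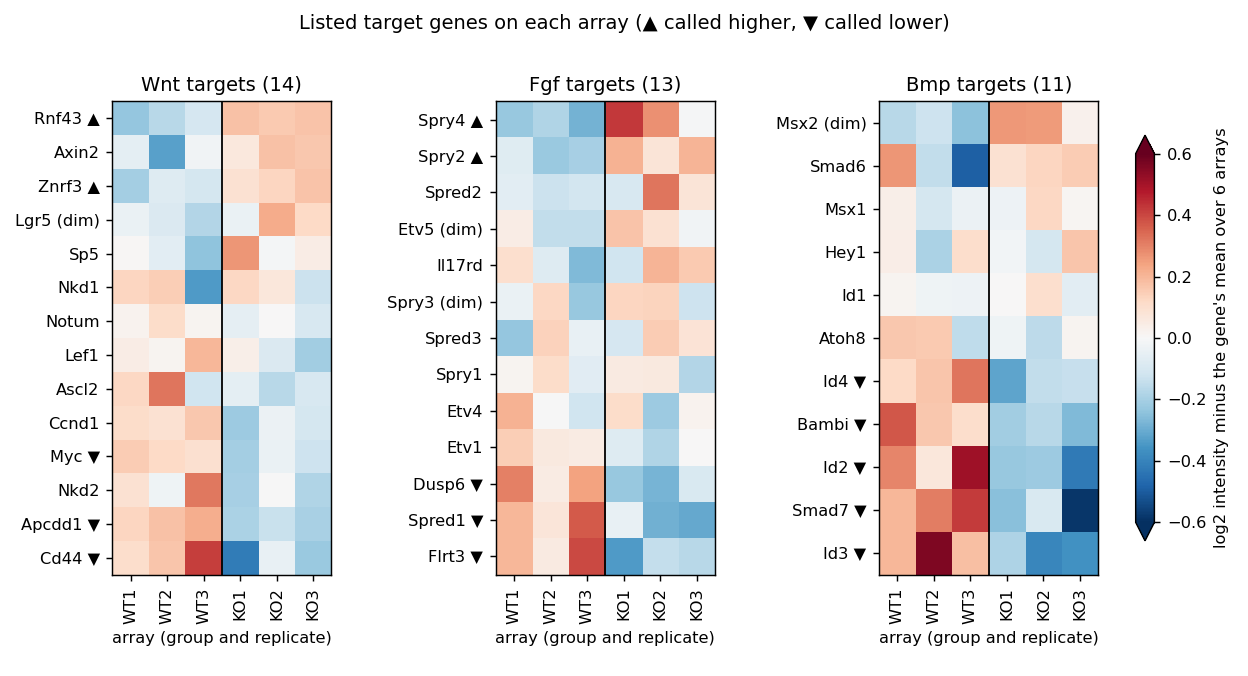
Log2 intensity of the listed Wnt, Fgf and Bmp target genes on each array, as the difference from the gene's mean over the 6 arrays (red higher, blue lower; triangles mark calls). The 5 called Bmp targets are below their mean in all 3 KO-labelled mice and above it in all 3 WT mice, while called Wnt and Fgf targets split between both directions.

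The called receptor and antagonist genes of Bmp signalling all had differences smaller than that of Bmp2. Over all tested genes 14.1% fell and 12.0% rose. Of 9 tested receptor and co-receptor genes, 2 fell and 0 rose by limma (4 and 0 at an unadjusted p under 0.05). Acvr2a fell by 0.34 and Bmpr1a fell by 0.28 on the log2 scale. Bmpr1a lost its call without any array but WT replicate 2 (adjusted p 0.0703 to 0.116), after centring on array medians (0.0507) and with the replicate block (0.0657). Acvr2a lost its call without KO replicate 1 (0.081) or KO replicate 3 (0.0598), and in those 2 fits 0 of the receptor genes fell. Without WT replicate 1 or WT replicate 3, 1 of them fell. Of 11 tested antagonists, 3 fell and 1 rose, and the count that fell ran from 2 to 4 in the fits without 1 array. Fstl1 read 7.74, 7.71 and 7.68 in the WT mice and 6.93, 7.21 and 7.32 in the mice labelled KO, and fell 1.47-fold without overlap (limma adjusted p = 0.0021). Sostdc1 is again among those that fell, Twsg1 fell by 0.31 on the log2 scale and Nbl1 rose by 0.30. Twsg1 lost its call without KO replicate 1 or KO replicate 3 (adjusted p = 0.084 in each), and Nbl1 on leaving out KO replicate 1 (0.10), KO replicate 3 (0.057) or WT replicate 3 (0.051). Of 8 tested transducers, Smurf2, a ligase for Smads and receptors, fell by 0.42 (limma adjusted p = 0.0028), Skil fell by 0.30 and Smurf1 rose by 0.23. Smurf1 and Skil lost their calls in each fit without 1 array other than WT replicate 3 (adjusted p 0.086 to 0.13 and 0.058 to 0.105).

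Relatives of the Bmp ligands in the Tgf-beta superfamily included 2 genes that were far lower in the mice labelled KO. Lefty2, a secreted inhibitor of Nodal, read 6.80, 6.61 and 7.13 in the WT mice and 4.24, 4.79 and 4.34 in the mice labelled KO. It was tested only because the WT arrays reached the filter, so no exact fold or p is given: against the filter value in place of the KO-labelled mean it was at least 1.83-fold lower. Gdf3, a factor of early embryos and fat, read 7.20, 7.19 and 7.42 against 6.44, 6.12 and 6.49 and fell 1.89-fold without overlap (limma adjusted p = 0.00012). Of 17 tested relatives, Lefty2 included, 0 rose by limma, and Gdf3 and Mstn fell, where 14.1% of all tested genes fell. Lefty2 is left out of the falls, since it reached the filter in the WT mice alone. At an unadjusted p under 0.05, Lefty2 included, 4 relatives were lower and 2 higher by limma. The median was 0.02 over the 21 listed. Mstn, at -0.35 with touching groups, lost its call without any array but KO replicate 1 (adjusted p 0.051 to 0.17). Without WT replicate 1 or WT replicate 2, 2 and 1 of the relatives rose.

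Mesenchymal cells are a known source of many of these ligands, and their markers gave no common direction. Of 7 tested mesenchymal markers, Col1a1 fell by 0.63 and Dcn rose by 0.75 on the log2 scale, and 5 did not pass, among them Pdgfra, at 0.08, and Pdgfrb, at -0.17. The 8 listed summed to linear intensities of 2095 to 2294 in the WT mice and 2336 to 2803 in the mice labelled KO. The ligands that mesenchyme is known for, Fgf7, Fgf10, Bmp4 and Wnt5a, were all too dim to test. The part of mesenchymal RNA in the member differences was not tested.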

How the data were processed

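RNA of 6 sorted samples, 1 mouse each, was amplified in 2 rounds and hybridised to Affymetrix arrays, per the labels' protocols. The authors deposited linear intensities per probe set, made with RMA per the submitters' processing notes, with version and genome build not given in sources used here. RMA forces the arrays to a common distribution, so a change in total RNA cannot be seen, and background compresses differences of dim genes. Of 35512 probe sets, 21789 carry 1 gene symbol, 1621 several and 12102 none. After log2 transformation (pseudocount 0), the 1-symbol probe set of highest mean stood for each of 19938 genes. Entrez identifiers of all 54 members matched RefSeq of GRCm38.p6.

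Genotype was the only factor in limma 3.58.1 (lmFit and eBayes, two-sided; R 4.3.3), and p-values were adjusted by Benjamini-Hochberg over all tested genes. The code was also run on simulated arrays with independent noise and far fewer changed genes than were called here. That run does not measure error rates in these data. Text names every called member, the 6 members of highest mean per family and up to 4 called genes of each list, with others chosen after their values were seen. The members and lists were chosen with earlier results of these data known. Labels give no batch. Alternatives covered the filter, scaling, offset, probe set rule, variance model, array weights, replicate block and each array left out. Figures were drawn with matplotlib 3.10.9.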

Additional observations from a re-analysis of the deposited data

How the results depend on the processing

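The fall of Bmp2, Fgf23, Fgf15 and Wnt2b and the rise of Fgf13 and Fgf14 kept their direction and call in every alternative that tested them, and the rises of Fgf21, Wnt3 and Wnt9a kept their direction but lost their call in 5, 5 and 6 of the 16, 15 and 16 alternatives. With the 60th percentile as filter (7.17), 17 members were tested and 2 fell, since Fgf15 and Wnt2b were no longer among them. Fgf23 passed that filter through its WT arrays alone and Wnt9a through its KO-labelled arrays alone. That fit therefore adds nothing on the calls of Fgf23 and Wnt9a. Leaving out 1 array at a time, 4 members fell in each fit and 2 to 5 rose, and over all tested genes 1364 to 1877 fell and 1052 to 1547 rose. With the replicate block, the number shared by 1 mouse of each genotype, 4 members fell and 4 rose, and over all genes 1742 fell and 1368 rose. Wnt9a alone lost its call (adjusted p = 0.052). The numbers did not pair the samples: correlations of same-numbered deviations from the group means were -0.02, -0.21 and -0.06, and no sample correlated best with its own number. Another quantile normalization and centring on array medians moved the median of all tested genes to 0.03 and 0.04 from 0.02. Of the list counts, 76 of 416 values under alternatives moved by over 1.5 times. The number of arrays limits the precision: with 3 mice per genotype the uncalled members' intervals reach from -0.38 to 0.57, and without detection calls the signal of dim members over background is unknown.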
